A study of Gallus gallus with 4 samples.

Results

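COL10A1, PANX3, PTH2R and S100A1 are known as markers of prehypertrophic and hypertrophic chondrocytes. Their probe sets were chosen by gene symbol, as all those whose platform annotation gives 1 of these symbols alone. This gave 7 probe sets for the 4 genes, of 13009 genes named on the array. The 4 genes and the gene lists used below were themselves chosen with earlier results of these data known. Shares of them called, set beside all tested genes, are therefore descriptive only. PTH2R is the annotation's name for the parathyroid hormone receptor that is also called PTH1R.

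Cartilage of a growing long bone is either transient or permanent. Transient cartilage matures through a prehypertrophic and a hypertrophic state, mineralizes and is replaced by bone, whereas articular cartilage at the joint surface persists. Indian hedgehog from prehypertrophic cells and PTHrP from the joint end form a feedback loop. The receptor for PTHrP sits at its centre and delays the step to hypertrophy.

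The tissue was tibial cartilage of white leghorn chicken embryos. Transient cartilage of the epiphysis (TC) and articular cartilage that still carried a little transient cartilage (TC+AC) were sampled. The stages were HH stage 38, which is day 12 of incubation (E12), and HH stage 40, day 14 (E14). HH stands for the Hamburger-Hamilton scale. The labels name no treatment. A single Affymetrix array was made for each combination, 4 in all, from pooled dissections, so no group had a replicate and the spread between embryos or between dissections was not measured. Because TC+AC contains transient cartilage too, its values are those of a mixture. Both dissections also held signal of bone, muscle and red cell genes, given below.

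The arrays differed in quality, and the number of arrays limits the precision. The SE and p-values below come from the disagreement between the 2 stages and from variation shared across genes, not from replicates. The median deposited intensity lay between 20.6 and 23.1 on 3 arrays and was 13.1 on the TC+AC E14 array. The ratio of 3′ to 5′ intensity of beta-actin was 1.99 to 4.01 on those 3 arrays and 7.48 on the TC+AC E14 array. Levels below are quantile-normalized linear intensities, which have no absolute unit and cannot be compared between probe sets. Background on an array is the 95th percentile of its virus probe sets, between 15.6 and 24.6.

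Both dissections carried cartilage RNA. Of 13 chondrocyte genes on the array, 12 were above background on all 4 arrays, and the main cartilage collagen gene COL2A1 lay 1.09-fold below TC in TC+AC at E12 and 1.19-fold below it at E14 (limma log2 difference -0.19 ± 0.50 SE, adjusted p = 0.92). Of the 13 tested, MATN1, which encodes a matrilin, was lower in TC+AC (limma adjusted p = 0.044) and 0 were higher. Of all tested genes 0.73% were called lower. The MATN1 call was lost on deposited intensities and with arrays scaled on hybridization controls. The median log2 tissue difference of these 13 was -0.48 at E12 and -1.37 at E14, a larger drop than that of COL2A1. Of 9 tested genes of the joint surface, 4 were higher in TC+AC (TPPP3, BARX1, WNT4 and SCX) and 0 lower, beside 0.743% of all tested genes called higher. These calls depended on the scaling: 1 was left on deposited intensities and 0 with arrays scaled on hybridization controls (4 and 1 at an unadjusted p under 0.05, limma). The other tested genes of this list, GDF5, ERG, ENPP2, CHRD and SFRP2, were not called. In that order their log2 tissue differences were 0.62, 0.21, 0.48, 0.88 and -0.14 at E12. At E14 they were -0.02, -0.37, -1.82, 1.80 and 2.65.

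The hypertrophic markers were much lower in the dissection that contained articular cartilage. COL10A1, PANX3 and PTH2R were all lower, by 12.1-fold to 16.3-fold, at each stage. S100A1 did not share this pattern: its only probe set lay close to background on all arrays. Because the members were picked with earlier results of these data known, their share of calls is not independent evidence. In the limma fit across 7805 genes, 3 of the 3 members tested were lower in TC+AC, against 0.73% of all genes tested that were called lower (1.47% were called in either direction). The comparison is between dissections, not between pure cartilage destined for bone and pure cartilage that persists. In such bulk samples fewer hypertrophic cells, fewer bone cells and less RNA per cell cannot be told apart.

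COL10A1 encodes collagen X, the short-chain collagen that hypertrophic chondrocytes lay down. Its probe set had a normalized intensity of 1895 in TC and 151 in TC+AC at E12, and of 3876 in TC and 318 in TC+AC at E14. All 4 values lay above background. TC+AC stood 12.6-fold below TC at E12 and 12.2-fold below it at E14, with a log2 difference of -3.63 ± 0.50 SE (limma adjusted p = 3.6e-05, 4 arrays). The other short-chain collagen genes on the array, COL8A1 and COL8A2, had log2 tissue differences of -0.24 and 0.38, and neither passed the test.

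PANX3 encodes pannexin 3, a channel protein that in mouse is made by prehypertrophic chondrocytes and osteoblasts. Its brighter probe set had 1330 in TC and 96.6 in TC+AC at E12, and 968 in TC and 79.6 in TC+AC at E14. TC+AC stood 13.8-fold below TC at E12 and 12.2-fold below it at E14 (log2 difference -3.69 ± 0.50, limma adjusted p = 3.2e-05). The dimmer probe set had 37.6 and 43.5 in TC and did not exceed background in TC+AC at either stage. There TC+AC stood at least 1.97-fold (E12) and at least 1.77-fold (E14) below TC, the same direction as the brighter one.

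PTH2R encodes the receptor through which PTHrP holds chondrocytes back from hypertrophy, and prehypertrophic cells are known for the most of it. Its brightest probe set had 1947 in TC and 160 in TC+AC at E12, and 2535 in TC and 156 in TC+AC at E14. TC+AC stood 12.1-fold below TC at E12 and 16.3-fold below it at E14 (log2 difference -3.81 ± 0.50, limma adjusted p = 2.4e-05). A second probe set had 57.5 and 120.7 in TC and did not exceed background in TC+AC at either stage, at least 3.01-fold and at least 4.91-fold lower. Probes of the first and second can also match more than 1 transcript, by the array's naming. The third lay below background on all 4 arrays and says nothing about the gene.

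S100A1 encodes a calcium-binding protein that in mouse cartilage acts with S100B to restrain terminal differentiation and that is also abundant in muscle. Its probe set had 31.1 in TC and 30.7 in TC+AC at E12, and 12.4 in TC and 31.4 in TC+AC at E14. The TC E14 value lay below background and the other 3 just above it, by less than 2-fold. TC+AC thus stood 1.01-fold below TC at E12, a near-equal value, and at least 2.02-fold above it at E14. With arrays scaled on hybridization controls the E14 difference turned to -0.13 on the log2 scale. S100A1 was among the 40% of genes with the lowest mean and so was left out of the gene-level test. In a fit over 23063 probe sets its log2 tissue difference was 0.66 ± 0.60 (limma adjusted p = 0.78). So close to background, this probe set cannot show whether S100A1 marks the transient tissue.

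**Figure D1:**
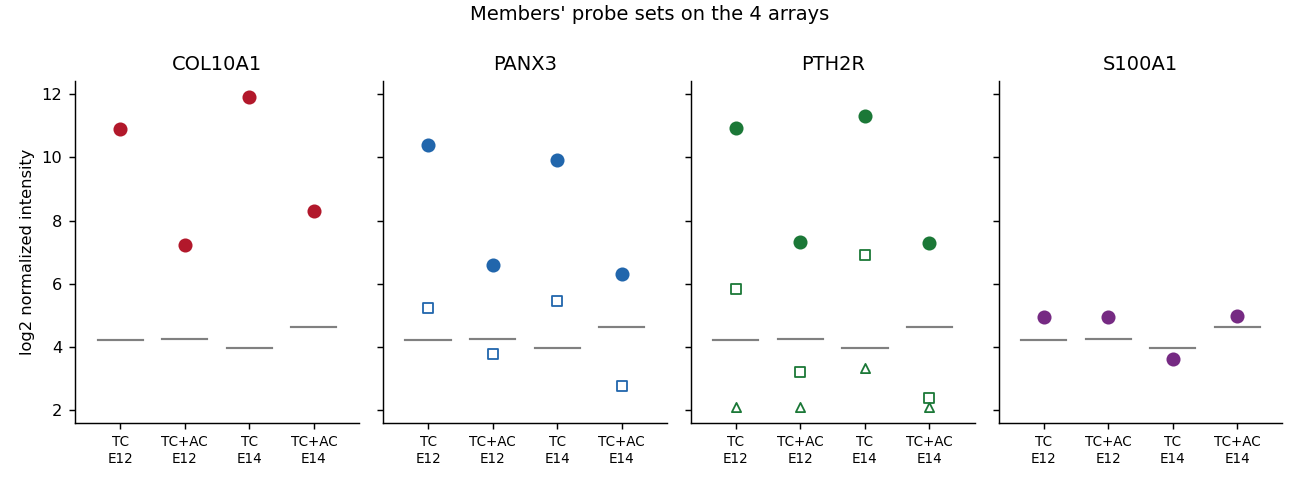
Log2 normalized intensity (vertical axis) of the 7 probe sets of the 4 genes on each of the 4 arrays, 1 point per array. Filled circles are each gene's brightest probe set, open squares and triangles the dimmer ones, and grey bars the background of each array; COL10A1, PANX3 and PTH2R stand high in TC and low in TC+AC, while S100A1 stays near background.

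Few genes had differences as large at both stages. COL10A1 ranked 12, PANX3 11 and PTH2R 7 from the lowest of 7805 tested genes by the fitted tissue difference. At least 2-fold lower at E12 were 3.28% of tested genes, at E14 15.6%, and at both stages 1.4%. Lower at both stages by at least the smaller of its own 2 differences were 5 genes for COL10A1 (0.0641% of those tested), 6 for PANX3 (0.0769%) and 7 for PTH2R (0.0897%), the gene itself included.

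The direction held with other scalings of the arrays. The size at E14 grew, but the median over all tested genes fell too, from 0.05 after quantile normalization. On deposited intensities, with no normalization between arrays, the log2 tissue difference at E12 was -3.45 for COL10A1, -3.65 for PANX3 and -3.42 for PTH2R. At E14 it was -4.57, -4.69 and -5.06 in the same order, where the median of all tested genes was -1.08. Set against COL2A1 on the same array, the deposited log2 ratio of COL10A1 changed by -3.60 from TC to TC+AC at E12 and by -4.02 at E14. That of PANX3 changed by -3.80 and -4.15, and that of PTH2R by -3.57 and -4.52. COL2A1 changed less between the tissues than the median of the 13 chondrocyte genes, so these ratios depend on that choice. ACAN, another chondrocyte gene, was 1.48-fold lower in TC+AC at E12 and 8.16-fold lower at E14 (limma adjusted p = 0.10). Set against ACAN, the E14 changes would be much smaller.

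**Figure D2:**
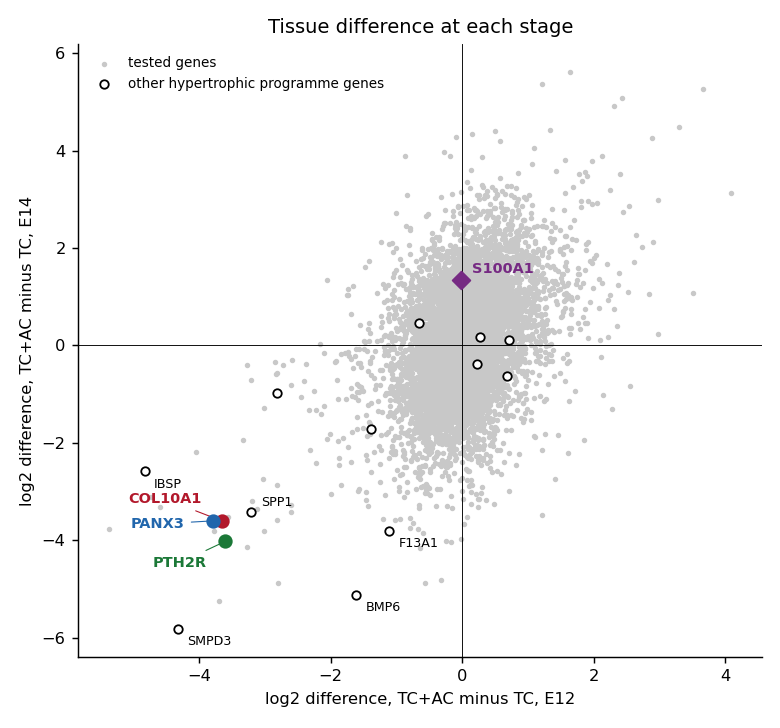
Log2 difference of TC+AC minus TC at E12 (horizontal axis) and at E14 (vertical axis), 1 grey point for each of 7805 tested genes, with the 4 members in colour and other genes of the hypertrophic programme as open circles. COL10A1, PANX3 and PTH2R lie together at -3.78 to -3.60 on the horizontal axis, far from the bulk, and S100A1 (diamond, not tested) lies within it.

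Between the stages the members parted. COL10A1 had higher values at E14 than at E12 and PANX3 lower ones, in both tissues, but no member passed the test for stage. The log2 difference of E14 minus E12 was 1.03 in TC and 1.08 in TC+AC for COL10A1 (fitted 1.06 ± 0.50, limma adjusted p = 0.69), or 2.05-fold and 2.11-fold. At least 2-fold higher at E14 were 8.3% of tested genes in TC and 4.71% in TC+AC. PANX3 had -0.46 and -0.28 (fitted -0.37 ± 0.50, limma adjusted p = 0.97). PTH2R had 0.38 in TC and -0.04 in TC+AC (fitted 0.17 ± 0.50, limma adjusted p = 0.99).

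Of the 3 members tested 0 were called for stage by limma, and 1, COL10A1, had an unadjusted p under 0.05. Of all genes tested 0.256% were called and 6.91% had an unadjusted p under 0.05. Scaling moved these changes. On deposited intensities COL10A1 had 0.79 in TC but -0.33 in TC+AC, PANX3 had -0.53 and -1.57, and PTH2R had 0.21 and -1.44, with medians over all tested genes of -0.06 in TC and -1.33 in TC+AC. With arrays scaled on hybridization controls COL10A1 likewise had 1.23 and -0.17.

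A ratio of probe sets on the same array is free of a linear scaling between arrays. It is not free of their differences in quality. The 3′ to 5′ ratio of beta-actin was highest on the TC+AC E14 array (7.48), which enters every TC+AC stage change and every E14 tissue change. On deposited intensities the log2 ratio of COL10A1 to PANX3 was 0.46 in TC and 0.66 in TC+AC at E12, and 1.78 and 1.90 at E14. It thus moved by 1.32 in TC and by 1.24 in TC+AC between the stages, but by only 0.20 and 0.12 between the tissues. The ratio of COL10A1 to PTH2R moved by 0.58 and 1.11 between the stages, and that of PTH2R to PANX3 by 0.74 and 0.13. Each of these values rests on single arrays, and whether the genes differed in their change was not tested.

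S100A1 had a log2 stage difference of -1.33 in TC, or at least 1.997-fold lower at E14, and of 0.03 in TC+AC. After quantile normalization the TC E14 array alone was low, and the other 3 lay between 30.7 and 31.4. On deposited intensities S100A1 was low on both E14 arrays, with 32.4 in TC and 36 in TC+AC at E12, and 14.4 and 19.3 at E14. Its stage difference in TC+AC was then -0.90. At least 2-fold lower at E14 were 14.1% of tested genes in TC and 7.92% in TC+AC.

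**Figure D3:**
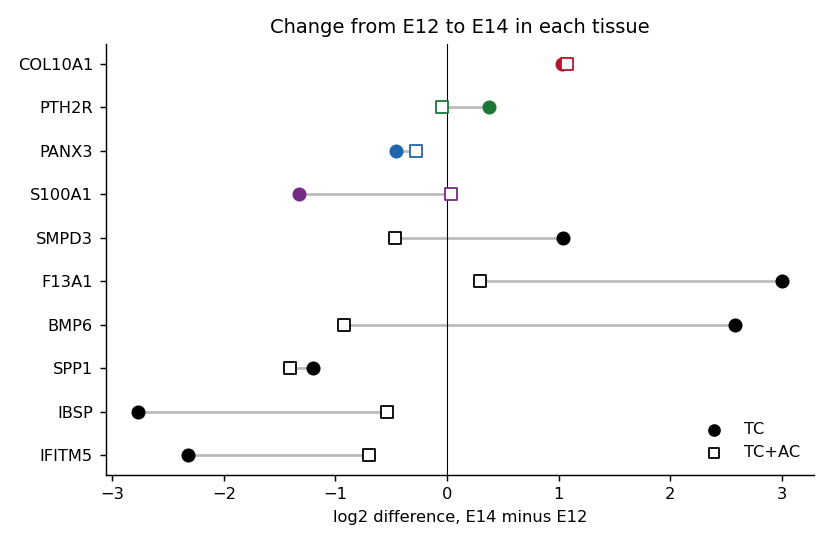
Log2 difference of E14 minus E12 (horizontal axis) in TC (filled circles) and TC+AC (open squares), with 1 array on each side of a difference, for the 4 members in colour and 6 further genes called lower in TC+AC in black. COL10A1 lies to the right of 0 in both tissues (in TC+AC its sign turns to -0.33 on deposited intensities), while SPP1, IBSP and IFITM5 lie to the left of 0 in both.

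The wider hypertrophic programme moved with the members in part. Of 17 further genes of that programme 15 were on the array and 12 were tested. In TC+AC 5 of these were lower and 0 higher, beside 0.73% of all tested genes called lower. The median log2 tissue difference of the 12 was -1.25 at E12 and -1.35 at E14, beside -0.00 and 0.05 over all tested genes. SMPD3, a sphingomyelinase gene of mineralizing cartilage, lay 19.98-fold (E12) and 56.6-fold (E14) lower in TC+AC (limma adjusted p = 1.1e-06). F13A1, the factor XIII transglutaminase gene of hypertrophic chondrocytes, was 2.15-fold and 14.1-fold lower (limma adjusted p = 0.016). The growth factor gene BMP6 was 3.05-fold and, against background, at least 18.1-fold lower (limma adjusted p = 0.0011).

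The remaining 2 calls were SPP1, the osteopontin gene (9.29-fold and 10.7-fold lower), and IBSP, the gene of bone sialoprotein (28.3-fold and 6.01-fold lower). MMP13, the collagenase gene of late hypertrophic cells, had 192 in TC and 307 in TC+AC at E12, and 457 in TC and 296 in TC+AC at E14, so that its direction changed between the stages (log2 difference 0.02 ± 0.51, limma adjusted p = 0.99). The phosphatase genes PHOSPHO1 and ALPL were not called. PHOSPHO1 was lower by 7.07-fold (E12) and 1.97-fold (E14) in TC+AC (limma adjusted p = 0.065), and ALPL lay above background in TC at E12 alone and was not tested. Also tested and not called were CCN2, ENPP1, ANKH and TGM2. In that order their log2 tissue differences were 0.23, 0.71, -0.66 and 0.27 at E12. At E14 they were -0.39, 0.11, 0.46 and 0.18.

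Of 22 known regulators of COL10A1, 18 were on the array and 15 tested. None of the 15 was called by limma, and 5 had an unadjusted p under 0.05, as had 13.4% of all tested genes. Their median log2 tissue difference was -0.18 at E12 and -0.81 at E14, and 6 of the 15 were higher in TC+AC at E14. MEF2D was 1.14-fold lower in TC+AC at E12 and 5.71-fold higher at E14 (limma adjusted p = 0.36). RUNX1 was 1.07-fold lower and 2.14-fold higher (limma adjusted p = 0.74). RUNX2, the runt factor that drives hypertrophy, was lower in TC+AC by 2.61-fold (E12) and 3.30-fold (E14) (log2 difference -1.55 ± 0.50, limma adjusted p = 0.12). MEF2C, a factor that activates the COL10A1 gene in mouse, was 1.46-fold and at least 3.90-fold lower (limma adjusted p = 0.11). The homeobox gene DLX5 was 6.09-fold and 1.75-fold lower (limma adjusted p = 0.10). SOX9, which keeps chondrocytes from maturing, was 1.22-fold higher in TC+AC at E12 and 2.59-fold lower at E14 (limma adjusted p = 0.71).

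Around the receptor PTH2R, other genes of the hedgehog and PTHrP axis were not called lower. Of 22 such genes 17 were on the array and 13 tested. In TC+AC 0 were lower and 2 higher, beside 0.73% of all tested genes called lower and 0.743% called higher. Of the 13, 5 had an unadjusted p under 0.05 (limma), as had 13.4% of all tested genes. That 0 of 13 were called lower is near the share of all tested genes and sets no contrast with PTH2R. The 2 called higher were the hedgehog co-receptor genes CDON (limma adjusted p = 0.00076) and BOC (limma adjusted p = 0.020). Both calls were lost on deposited intensities and with arrays scaled on hybridization controls. On hybridization controls the log2 tissue difference at E14 was 1.65 for CDON and -0.11 for BOC. The ligand gene IHH lay below background on all 4 arrays, so its level was not measured here. PTHLH, which encodes PTHrP, was above background in TC+AC at E12 and in TC at E14 alone. PTCH1 and HHIP, hedgehog target genes that encode its receptor and a decoy, did not pass (limma adjusted p = 0.15 and 0.22). In TC+AC PTCH1 was 3.40-fold (E12) and 2.15-fold (E14) lower, and HHIP 3.25-fold and 1.84-fold. GLI1, also on this list, lay below background on all 4 arrays. SMO was 1.14-fold (E12) and 2.32-fold (E14) higher in TC+AC and did not pass (limma adjusted p = 0.59). Whether the hedgehog response differed between the tissues was not tested.

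Among relatives of PANX3, PANX1 was higher in TC+AC by 1.46-fold (E12) and 1.07-fold (E14) and did not pass (limma adjusted p = 0.84). PANX2 was too dim to be tested. Of 5 pannexin and connexin genes tested beside PANX3, GJA1, which encodes the gap junction protein connexin 43, was lower in TC+AC (3.32-fold and 4.24-fold, limma adjusted p = 0.046) and 0 were higher. Of all tested genes 0.73% were called lower. The GJA1 call was lost on deposited intensities and with arrays scaled on hybridization controls.

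The 6 tested relatives of S100A1 had higher values in TC+AC than in TC at E14, by 1.02 (S100A12) to 2.58 (S100A13) on the log2 scale, but only 5 of 6 did on deposited intensities and 4 of 6 with arrays scaled on hybridization controls. Of these 6 genes 0 were called by limma, and 2 had an unadjusted p under 0.05, beside 13.4% of all tested genes. Their median log2 tissue difference was 0.17 at E12 and 1.57 at E14, and their median stage difference was -0.91 in TC and 0.12 in TC+AC. On deposited intensities the E14 tissue median was 0.76 and the stage median in TC+AC -0.83, and on hybridization controls they were 0.20 and -0.67. S100B, the gene most tied to S100A1 in mouse cartilage, had tissue differences of -0.61 and 1.96 (limma adjusted p = 0.66). Skeletal muscle is rich in S100A1. Of 13 muscle genes on the array 4 were above background on all arrays and 3 on none, and their summed normalized intensity was 1533 in TC and 1093 in TC+AC at E12, and 247 in TC and 815 in TC+AC at E14. The muscle genes thus also had their lowest value in TC at E14, as had the endothelial and red cell genes given below. The median log2 tissue difference of the 6 tested muscle genes at E14 was 1.74, but 0.06 with arrays scaled on hybridization controls. The part of muscle in the S100A1 values was not tested.

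Bone cells can carry PANX3 and PTH2R too, and some of their markers were also lower in TC+AC. Of 9 osteoblast genes tested 3 were lower in TC+AC (IFITM5, IBSP and SPP1, the last 2 also on the hypertrophic list) and 0 higher. Of all tested genes 0.73% were called lower. The bone-restricted gene IFITM5 was lower by 26.5-fold (E12) and 8.63-fold (E14) in TC+AC (limma adjusted p = 2.7e-05). The summed intensity of the 9 was 32588 in TC and 19144 in TC+AC at E12, and 22259 in TC and 19027 in TC+AC at E14. Of these genes 8 were above background on all arrays, with a median log2 tissue difference over the 9 of -1.66 at E12 and -0.40 at E14. BGLAP, the osteocalcin gene, was 3.16-fold lower in TC+AC at E12 but 2.31-fold higher at E14, and SPARC, the osteonectin gene, 2.67-fold lower and then 1.37-fold higher. Neither passed the test. The collagen genes COL1A1 and COL1A2, which made up much of the sum, were 1.08-fold to 1.41-fold lower in TC+AC and did not pass either. DMP1 was 9.69-fold (E12) and 1.32-fold (E14) lower in TC+AC (limma adjusted p = 0.10). PHEX was 3.03-fold and, against background, at least 1.70-fold lower (limma adjusted p = 0.22).

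Between the stages in TC, the log2 stage difference was -2.32 for IFITM5, -2.77 for IBSP and -3.49 for DMP1, a gene of osteocytes, beside 1.03 for COL10A1, 0.38 for PTH2R and -0.46 for PANX3. None of these 3 bone genes passed the test for stage (limma adjusted p = 0.37, 0.31 and 0.17). The other tested osteoblast genes had -2.53 (BGLAP), -1.33 (PHEX), -1.26 (SPARC), -1.20 (SPP1), -0.21 (COL1A2) and -0.16 (COL1A1) in TC. On deposited intensities the log2 ratio of COL10A1 to IFITM5 moved by 3.06 in TC and by 1.63 in TC+AC between the stages. The ratio of PTH2R to IFITM5 moved by 2.48 and 0.51, and that of PANX3 to IFITM5 by 1.74 and 0.38. Between tissues at E12 and at E14 the ratio of COL10A1 to IFITM5 moved by 1.06 and -0.38. The ratio of COL10A1 to SPP1 moved by 1.98 in TC and 2.11 in TC+AC between the stages. Between the tissues it moved by -0.39 at E12 and -0.26 at E14. For COL10A1 to IBSP the stage moves were 3.54 and 1.35, and the tissue moves 1.23 and -0.97. The part of bone cells in the tissue difference of the members was not tested.

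Genes of osteoclasts (5 tested), endothelium (7) and red cells (7) held 0 calls for tissue in the limma fit, with 1, 1 and 3 at an unadjusted p under 0.05 (13.4% of all tested genes). The summed intensity of 8 osteoclast genes was 1325 and 1313 in TC and 1870 and 1917 in TC+AC, at E12 and E14. For 9 endothelial genes it was 903 and 455 in TC and 683 and 692 in TC+AC, and for 8 red cell genes 18050 and 9149 in TC and 19208 and 18512 in TC+AC. The median log2 tissue difference of the 7 endothelial genes was -0.51 at E12 and 0.39 at E14 after quantile normalization. On deposited intensities it was -0.35 and -0.84, the direction of COL10A1, PANX3 and PTH2R. The median of all tested genes was then 0.20 and -1.08. The part of these cells in the members' values was not tested.

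The genes with profiles most like the members were found by the root mean square difference of centred log2 values over the 4 arrays. Closest to COL10A1 were PPP1R17 (0.30), LOC770392 (0.32) and MME (0.39). PPP1R17, which encodes an inhibitor of protein phosphatases, had log2 tissue differences of -3.12 and -3.36 and, like COL10A1, higher values at E14 in both tissues, by 1.61 and 1.37. Closest to PANX3 were SYTL2 (0.20), PTH2R (0.31) and MME (0.48), and closest to PTH2R were MME (0.18), SYTL2 (0.20) and PANX3 (0.31). MME, which encodes the peptidase neprilysin, and SYTL2, a vesicle traffic gene, did not exceed background in TC+AC at E12 or E14.

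Among the members PANX3 and PTH2R were the most alike, at 0.31, followed by COL10A1 and PTH2R at 0.47 and COL10A1 and PANX3 at 0.71. S100A1 stood at 2.20 to 2.33 from each of them. Its nearest genes were NIFK (0.04), CITED4 (0.04) and ZC3H18 (0.04), all of them lowest in TC at E14 and with nearly equal values on the other 3 arrays. With 4 arrays such likeness describes these samples and no more.

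The calls rest on a fit with 1 residual degree of freedom per gene. COL10A1, PANX3 and PTH2R kept their sign and lay between -4.65 and -2.67 under all 14 alternatives tried, but the call was lost for all 3 under 4 of them. Without the TC+AC E12 array the limma adjusted p was 0.48, 0.34 and 0.34 in that order, and without the TC+AC E14 array 0.48 for each. Over all probe sets in place of genes it was 0.21 for each, and without a filter on dim genes 0.70 for each.

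**Figure D4:**
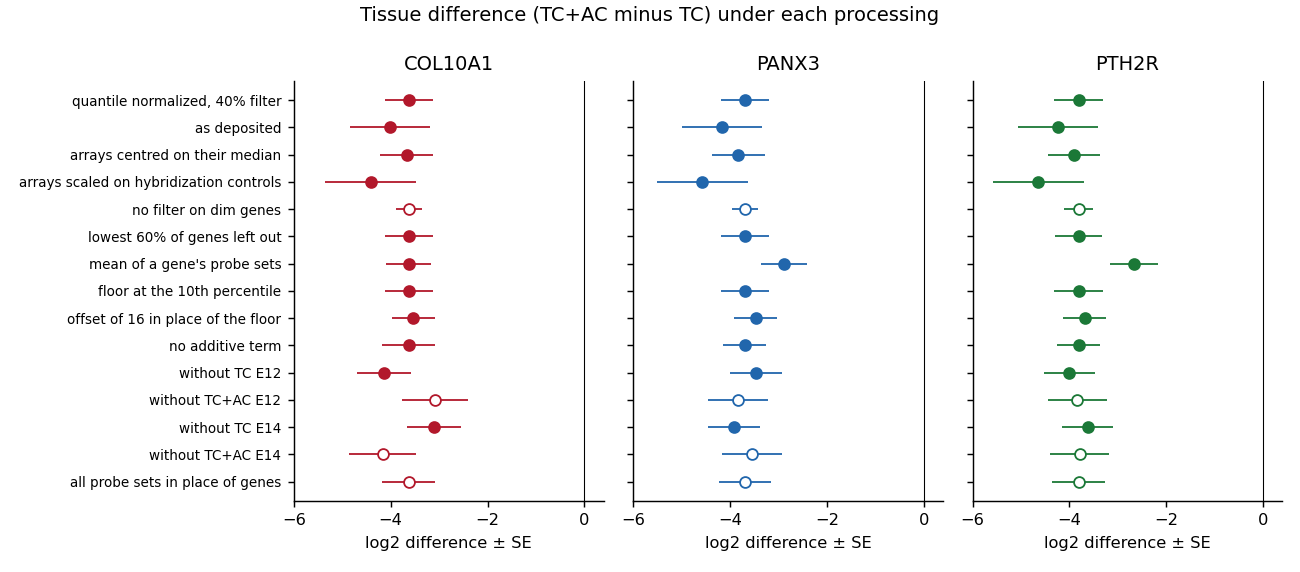
Fitted log2 difference of TC+AC minus TC with its standard error (horizontal axis) for COL10A1, PANX3 and PTH2R under the processing used here and 14 alternatives (vertical axis). Filled points have a limma adjusted p under 0.05 and open points do not; every point lies left of 0, and open points are the 4 alternatives under which the call was lost.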

How the data were processed

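The deposited table held linear intensities for 38535 probe sets on 4 arrays, from 5 µg of biotin-labelled total RNA each per the labels; the sources used here do not say how the authors summarized or scaled the deposited intensities. The members and gene lists were chosen with earlier results of these data known. In R 4.3.3 with limma 3.58.1, 96 control probe sets were left out and 38439 were quantile normalized, floored at the 20th percentile (4.275) and taken to log2. The brightest probe set stood for each of 13009 genes, and the lowest 40% were left out (7805 tested). Tissue and stage were additive terms (lmFit, eBayes), with Benjamini-Hochberg adjustment over all genes at 0.05. This leaves 1 residual degree of freedom, to which the prior added 27.0 (prior variance 0.254), so p-values rest largely on variation shared across genes. Differences within a stage or tissue have no test. Where a value lay at or below background (541 virus probe sets, 95th percentile), background took its place and the fold is a lower bound. Of 171 list entries 138 were found by symbol and 3 by synonym; 30 were not found under their names. Genes named were the members, called list genes, genes tied to the members' roles and, for each member, the 3 of most similar profile. Uncalled list genes outside these roles, such as DMP1, were chosen after their values were seen. The fit was tested on simulated data with independent noise of the same variance for all genes. Such data lack the quality differences of these arrays, so the test cannot show how the fit performs on them. Figures used Python 3.11.15 with matplotlib 3.10.9.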

Additional observations from a re-analysis of the deposited data

Results flagged for a closer look

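The log2 tissue difference of S100A1 was -0.0175 at E12 and 1.34 at E14, and its stage difference was -1.33 in TC and 0.0337 in TC+AC, opposite signs in each pair. The stage difference of PTH2R was 0.38 in TC and -0.0415 in TC+AC, again of opposite sign. Each value compares 1 array with 1 array, and the change between the pairs was not tested. The S100A1 value in TC at E14 lay below background. The opposite signs of S100A1 came with quantile normalization: its stage difference in TC+AC was -0.90 on deposited intensities, -0.11 with arrays centred on medians and -0.74 on hybridization controls. Its E12 tissue difference was 0.15 on deposited intensities. The fitted PTH2R stage difference also turned with the scaling.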

How the results depend on the processing

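The tissue difference kept its sign for COL10A1, PANX3 and PTH2R under all 14 alternatives, and its call under 10. Some kept calls came with infinite prior degrees of freedom. All genes then shared the same variance, and a call was only a cutoff on the size of the difference. These were deposited intensities, arrays centred on medians or scaled on hybridization controls, the lowest 60% left out and the offset of 16. Without a filter on dim genes the tissue difference was -3.63, -3.69 and -3.81 with limma adjusted p = 0.70 each, where the prior degrees of freedom fell to 1.42. Over all probe sets it had the same values with adjusted p = 0.21 each (prior 6.88). Leaving out 1 array also drops the additive term, so tissue and stage are no longer balanced. It gave -4.17 to -3.09 for COL10A1, -3.92 to -3.46 for PANX3 and -4.004 to -3.62 for PTH2R, and, with no call in the gene-level fit, -0.0007 to 1.33 for S100A1. For stage it gave -0.77 to 2.88, -2.26 to 1.52, -1.84 to 2.18 and -1.32 to 0.0249 in the same order. The stage difference of PTH2R was -0.62 as deposited, -0.30 with arrays centred on medians and -0.32 on hybridization controls. The tissue difference of S100A1 was -0.12 on hybridization controls.

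The 115 genes called for tissue (58 higher, 57 lower) became 32 as deposited (7 higher, 25 lower), 26 on hybridization controls (1 higher, 25 lower), 0 with no filter (715 at an unadjusted p under 0.05, limma), 217 with the lowest 60% left out (140 higher, 77 lower), 29 from mean probe sets, 264 with an offset of 16, 12 with no additive term and 0 to 883 without 1 array. It was 883 without TC E12, 65 without TC E14, and 0 without TC+AC E12 or TC+AC E14 (570 and 213 at an unadjusted p under 0.05, limma). With arrays centred on medians the split was 58 higher and 94 lower. The 20 called for stage became 0 as deposited, on hybridization controls, with no filter and with no additive term (370, 77, 567 and 235 at an unadjusted p under 0.05, limma). They became 68 centred on medians, 32 with the lowest 60% left out, 1 from mean probe sets, 54 with the offset and 0 to 1 without 1 array. Calls among the hypertrophic programme genes ran from 0 to 7 and among osteoblast genes from 0 to 4 over 13 alternatives. Among joint surface genes they ran from 0 to 5. No paired analysis was possible because replicate numbers pair nothing where each group holds 1 array; the additive stage term already sets the tissues against each other within a stage, and the fit with no additive term leaves that out. Apart from the prior degrees of freedom given, the cause of these moves was not tested.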
